A study of Mus musculus with 6 samples.

Results

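The 10 genes described here, Bcl11b, Foxp1, Foxp2, Meis2, Isl1, Ebf1, Rarb, Sp9, Mef2c and Dlx5, encode transcription factors known for building and maintaining the projection neurons of the striatum. They were chosen by symbol, and all 10 were found among the 18732 genes of the authors' deposited table by their Ensembl identifiers. All 10 were also among the 17279 genes with an adjusted p. RNA came from the mouse striatum, where the basal ganglia receive most of their input. The mice carried an Oprm1-Cre allele, which makes Cre recombinase from the locus of the mu opioid receptor, and RosaLSL-GFP-L10a, which after Cre has acted makes a ribosomal protein fused to GFP. RNA bound to the tagged ribosomes was purified with antibodies against GFP, a method called translating ribosome affinity purification. Both groups carried these alleles, and the labels give the first as Oprm1Cre/+ for each sample and as Oprm1Cre/Cre for the series. The morphine group, 3 libraries, received subcutaneous injections at 20, 40, 60 and then 100 mg/kg, 2 a day for 5 days, and the saline group, 3 libraries, received saline. Striata of 2 brains went into each library, collected 24 h after dosing ended, and no age is given in the labels. Tagged ribosomes are made in every striatal cell type in which the Cre allele has been active, so the RNA is not that of one neuron class.

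Striatal projection neurons are the GABA-releasing output cells of the striatum, and they fall into a direct-pathway class with dopamine D1 receptors and an indirect-pathway class with D2 receptors. Transcription factors give these cells their identity in the embryo, and several stay on in the adult, where they keep striatal genes active. Some act in both classes and others in one: in the mouse Isl1 and Ebf1 are known for the direct-pathway class and Sp9 for the indirect-pathway class.

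The values are those of the authors' comparison of the groups: a mean level over the libraries fitted, in counts divided by size factors, and a log2 fold change with its standard error (SE). A positive log2 fold change is read as higher after morphine, since the authors' sheet of increases holds the positive ones. The table names no reference group, and every direction below would turn if it were saline over morphine. No single-library values were analysed here, so neither the depth nor the spread of single libraries can be given beyond what the authors' SEs hold. A gene is called where the authors' Wald test in DESeq2 gave a Benjamini-Hochberg adjusted p under 0.05. Intervals at 95% were computed from each log2 fold change and its SE, gene by gene.

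The 10 genes differed 33.3-fold in mean level per kb of exon, a scale on which genes of different length can be compared. Bcl11b was the highest at 7004 normalised counts per kb, above 98.4% of tested genes, in the authors' deposited table. Foxp1 followed at 4525 and Meis2 at 2719 normalised counts per kb. Rarb and Mef2c lay close together at 2259 and 2126 normalised counts per kb, above 92.7% and 92.2% of tested genes. The other 5 were lower. Dlx5 stood at 693, Foxp2 at 531, Sp9 at 340, Isl1 at 324 and Ebf1 at 210 normalised counts per kb, the last above 53.6% of tested genes. The spread of the levels over libraries is unknown, so no step in this order was tested. Several of the genes have many annotated exons that no one transcript holds. Per kb of the longest transcript, Foxp1 (8670) came before Bcl11b (7004), and Mef2c (5322) before Rarb (3826). Oprm1 itself, with a mean level of 658 normalised counts or 81.9 per kb, lay below all 10 in the authors' deposited table, and its log2 fold change was 0.29 (SE 0.18 and adjusted p = 0.350).

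**Figure D1:**
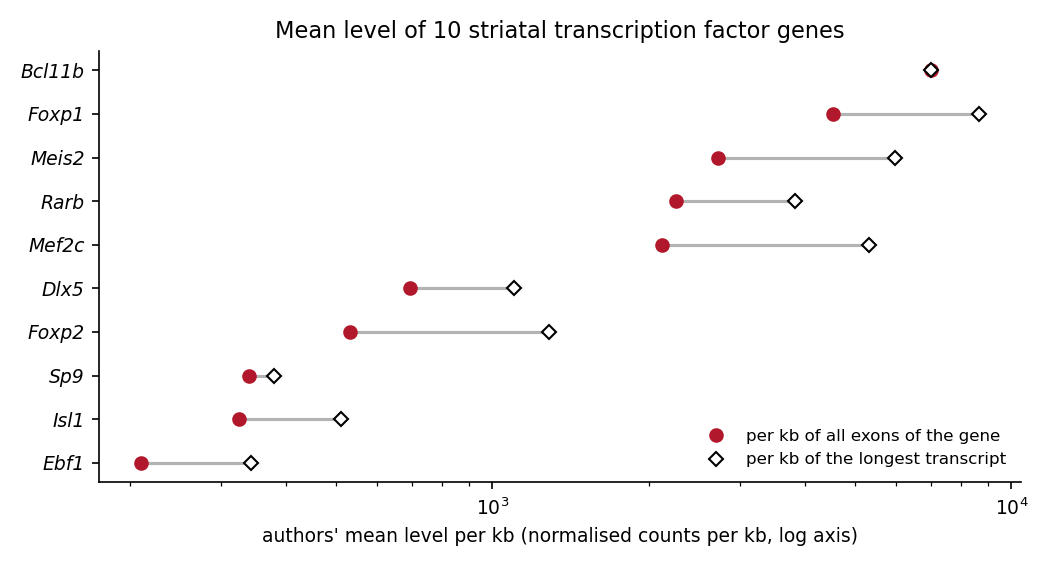
Mean level of the 10 genes per kb on a log axis, from the authors' mean over the libraries fitted; filled circles divide by all exons of the gene and open diamonds by the longest transcript, and the bar joins the values of 1 gene. Bcl11b, with 7004 normalised counts per kb, is the highest by exons, and Ebf1, with 210, is the lowest by either length.

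None of the 10 genes was called in the comparison of morphine with saline, against 13.8% of all tested genes and 16.4% of those with a mean level of at least 1000, where all 10 lie. Split by direction, 11.8% of all tested genes were higher and 2.01% lower. The authors' deposited table placed 9 of the 10 log2 fold changes below 0 (8 when centred on coding genes without a predicted signal or membrane segment), against 51.7% of all tested genes. Their range was -0.40 for Mef2c to 0.06 for Sp9, and their median was -0.21, against a median of -0.01 over all tested genes. At an unadjusted p under 0.05, 1 of the 10 passed, which was Mef2c, against 22.2% of all tested genes. No other tool could be run without counts. The 95% interval spanned 0 for 9 of the 10 genes. As folds, the lowest bound of any gene was 0.600 (Mef2c) and the highest was 1.27 (Sp9). Changes as large as the 2.07-fold rise of the enkephalin precursor gene Penk in the authors' deposited table thus lay outside every interval. Penk is among the genes with a predicted segment, and none of the 10 is. A call would have needed a log2 fold change of 0.32 for Meis2, the gene with the smallest SE, and of 0.50 for Isl1, the gene with the largest.

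**Figure D2:**
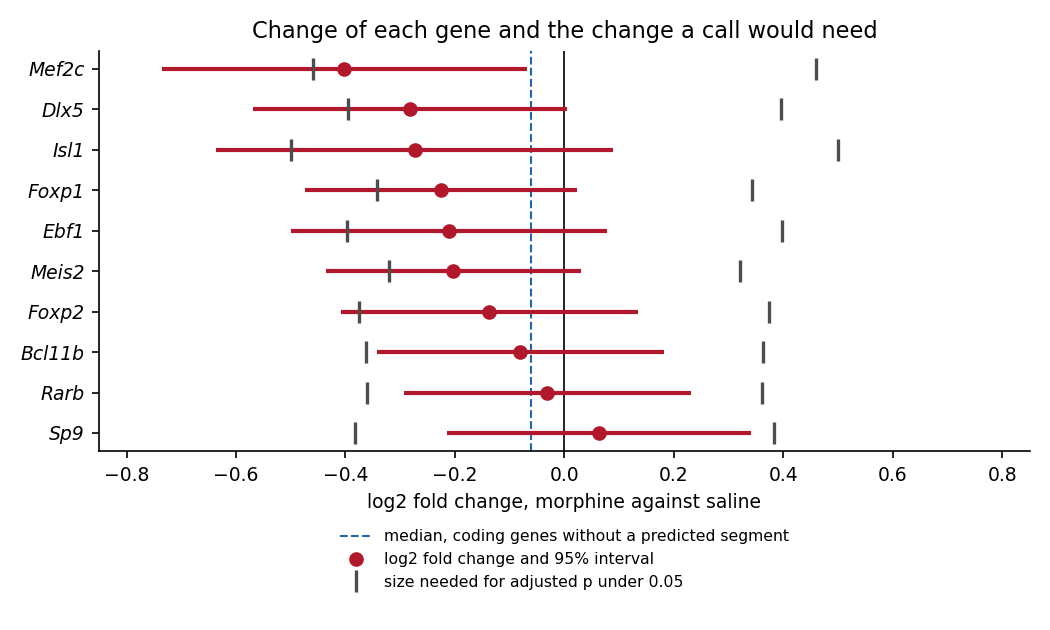
Log2 fold change of each gene (circle) with its 95% interval (line), the size that its SE would need for a call (grey ticks on both sides) and the median of coding genes without a predicted signal or membrane segment (dashed line). All 10 circles lie inside their grey ticks, from -0.40 for Mef2c to 0.06 for Sp9.

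Bcl11b, Foxp1, Foxp2 and Meis2 are the members with broad roles in projection neurons. Bcl11b (ENSMUSG00000048251, chromosome 12, 107910403 to 108003602 on GRCm38) encodes CTIP2, a zinc finger protein needed in the mouse for projection neurons to mature. It had a mean level of 56810 normalised counts in the authors' deposited table and a log2 fold change of -0.08 (SE 0.13 and adjusted p = 0.834). Its 95% interval ran from -0.34 to 0.18, or from 0.788-fold to 1.13-fold. Foxp1 (ENSMUSG00000030067, chromosome 6, 98925338 to 99522721) encodes a forkhead factor of both pathway classes. The authors' deposited table gave it a mean level of 62227 and a log2 fold change of -0.23 (SE 0.13 and adjusted p = 0.295), with an interval from -0.47 to 0.02. That was 66.0% of the size a call would have needed. Foxp2 (ENSMUSG00000029563, chromosome 6, 14901349 to 15441977) is the forkhead gene whose human counterpart is linked to speech. Its log2 fold change in the authors' deposited table was -0.14 (SE 0.14 and adjusted p = 0.670), at a mean level of 8682. Meis2 (ENSMUSG00000027210, chromosome 2, 115863064 to 116065839) encodes a homeobox factor that marks the embryonic lineage of these neurons. At a mean level of 32739 it had a log2 fold change of -0.20 (SE 0.12 and adjusted p = 0.330) in the authors' deposited table, 63.2% of the size needed.

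Isl1, Ebf1 and Sp9 are tied to one pathway class each. Isl1 (ENSMUSG00000042258, chromosome 13, 116298281 to 116309689), a LIM homeobox gene, is known for direct-pathway neurons and also for cholinergic interneurons. The authors' deposited table gave it a mean level of 1284 and a log2 fold change of -0.27 (SE 0.18 and adjusted p = 0.436), and its interval, from -0.64 to 0.09, was the widest of the 10. Ebf1 (ENSMUSG00000057098, chromosome 11, 44617317 to 45008091) acts in the differentiation of direct-pathway neurons. Its log2 fold change in the authors' deposited table was -0.21 (SE 0.15 and adjusted p = 0.455), at a mean level of 2053. Sp9 (ENSMUSG00000068859, chromosome 2, 73271925 to 73284706), a zinc finger gene, is required in the mouse for indirect-pathway neurons. It was the only one of the 10 above 0, with 0.06 (SE 0.14 and adjusted p = 0.887) at a mean level of 1713 in the authors' deposited table. The intervals of Isl1 (-0.64 to 0.09), Ebf1 (-0.50 to 0.08) and Sp9 (-0.21 to 0.34) overlapped one another, and the difference between the classes was not tested, because the table does not give how the estimates vary together.

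Mef2c and Dlx5 had the lowest values. Mef2c (ENSMUSG00000005583, chromosome 13, 83504034 to 83667080) encodes a factor of the MADS box class that responds to neuronal activity and takes part in synapse loss and maturation. The authors' deposited table gave it a mean level of 33408, a log2 fold change of -0.40 (SE 0.17), an unadjusted p of 0.0181 and an adjusted p of 0.108 by DESeq2. Its interval, from -0.74 to -0.07, was the only one of the 10 that lay wholly below 0, and its value was 87.5% of the size needed for a call. Its SE was 1.35 times the median of the 151 tested genes with a mean level within a factor of 1.2, the largest such ratio of the 10, whose lowest was 0.943. Mef2c is also known in cortical neurons, microglia and endothelium. Dlx5 (ENSMUSG00000029755, chromosome 6, 6877805 to 6882085) encodes a homeobox factor of GABA neurons. The authors' deposited table gave it -0.28 (SE 0.15 and adjusted p = 0.239) at a mean level of 1569, and its interval ended just above 0, from -0.57 to 0.01.

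Rarb encodes retinoic acid receptor beta, a nuclear receptor through which retinoic acid acts in the striatum, and it is itself a textbook target of retinoic acid. A promoter of the gene carries the element by which retinoic acid receptors bind, a direct repeat with a spacer of 5 bases. The 100 bases before a transcription start in RefSeq (GRCm38.p6, chr14:16575477-16575576, minus strand) are shown because they hold this element, whose 2 half-sites are in capitals. This start lies inside the annotated gene, whose 5' end is at 16819156. Which start the measured RNA came from was not tested.
Rarb: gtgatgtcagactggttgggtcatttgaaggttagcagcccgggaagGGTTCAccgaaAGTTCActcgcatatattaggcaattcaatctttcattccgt
The element lies 53 to 37 bases before the start. The letters GTTCANNNNNNGTTCA, searched on both strands, occurred in 25 of the 32851 RefSeq promoters of 300 bases, or 0.0761%. Of 13 promoters of 8 of the genes 1 held them, the Rarb promoter shown. These letters are those of the half-sites shown, so the match in Rarb was fixed beforehand. The share counts this spelling alone and not every element of this kind. CTANNNNTAG was in 0 of these 13 and in 3.69% of all promoters. It is a looser form of the core that MEF2 factors bind, with any base allowed in the middle. The 3.69% is therefore not a share of promoters with that core. Foxp2 and Dlx5 had no promoter entry. A match is a string of letters, and no binding was measured here.

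By the authors' deposited table Rarb (ENSMUSG00000017491, chromosome 14, 16430839 to 16819156) had a mean level of 11891 and a log2 fold change of -0.03 (SE 0.13 and adjusted p = 0.947), which was 0.030 when centred on coding genes without a predicted segment. Its interval from -0.29 to 0.23 corresponds to 0.816-fold to 1.17-fold, and its value was 8.67% of the size needed, the smallest share of the 10. Exons of Rarb share 1793 bases, or 34.1% of its exon bases, with exons of Top2b on the opposite strand. No source used here says that counting used strand, so reads of these genes may not be told apart there. Top2b, a topoisomerase gene, had a log2 fold change of -0.30 (SE 0.13 and adjusted p = 0.0927) in the authors' deposited table. Sp9 shares 5.35% of its exon bases with Cir1 and Foxp1 2.18% with Gm20696, and 7 of the 10 share none with another gene.

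Genes that make, carry, sense and break down retinoic acid were more mixed than the receptor. Of 21 tested genes of the pathway, 4 rose and 1 fell, around a median log2 fold change of 0.07, against 11.8% higher and 2.01% lower over all tested genes. Of the 4, Stra6, Rdh11 and Dhrs3 were among 5 genes of the pathway whose proteins have a predicted signal or membrane segment, a class in which 47.1% of 3508 tested genes rose. For Stra6, which takes up retinol at the cell surface, the authors' deposited table gave 1.47 (SE 0.43 and adjusted p = 0.00709) at a mean level of 66.2, and for Rbp4, the secreted carrier of retinol, 1.18 (SE 0.22 and adjusted p = 2.57e-06). Rdh11, a retinal reductase, rose by 0.97 (SE 0.19) and Dhrs3, another retinal reductase, by 0.55 (SE 0.18) in the authors' deposited table. Crabp1, a retinoic acid carrier in the cytosol, fell by 0.51 (SE 0.19 and adjusted p = 0.0437) in the authors' deposited table, a call that ended when values were centred on the median of all tested genes (adjusted p = 0.0512). The receptors gave no call: Rara was at 0.14 (SE 0.17), Rarg at 0.11 (SE 0.16), and Rxrg, a partner receptor with a level of 6229 normalised counts per kb, at 0.07 (SE 0.16) in the authors' deposited table.

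Paralogs of the 10 genes gave no call either. Of 27 paralogs listed 21 were tested and 0 passed, with 2 at an unadjusted p under 0.05, and their median log2 fold change was -0.09. The 2 were Bcl11a, a zinc finger gene like Bcl11b, and Mef2a. The authors' deposited table gave Bcl11a -0.34 (SE 0.13 and adjusted p = 0.0687) and Mef2a -0.24 (SE 0.12 and adjusted p = 0.222). In 5 families 1 of the 10 genes held most of the tested level per kb, from 74.6% for Meis2 among Meis genes to 89.0% for Bcl11b in its pair. Foxp1 at 78.1%, Rarb at 83.3% and Ebf1 at 87.3% lay between them. Mef2c held 24.9% of its family's level, behind Mef2d at 56.4%, whose log2 fold change was -0.09 (SE 0.12) in the authors' deposited table. Dlx6 held 62.3% of the Dlx level and Dlx5 26.5%. The 4 most abundant Dlx genes had log2 fold changes from -0.41 for Dlx2 (SE 0.22) to -0.23 for Dlx1 (SE 0.16) in the authors' deposited table, all with intervals that span 0.

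**Figure D3:**
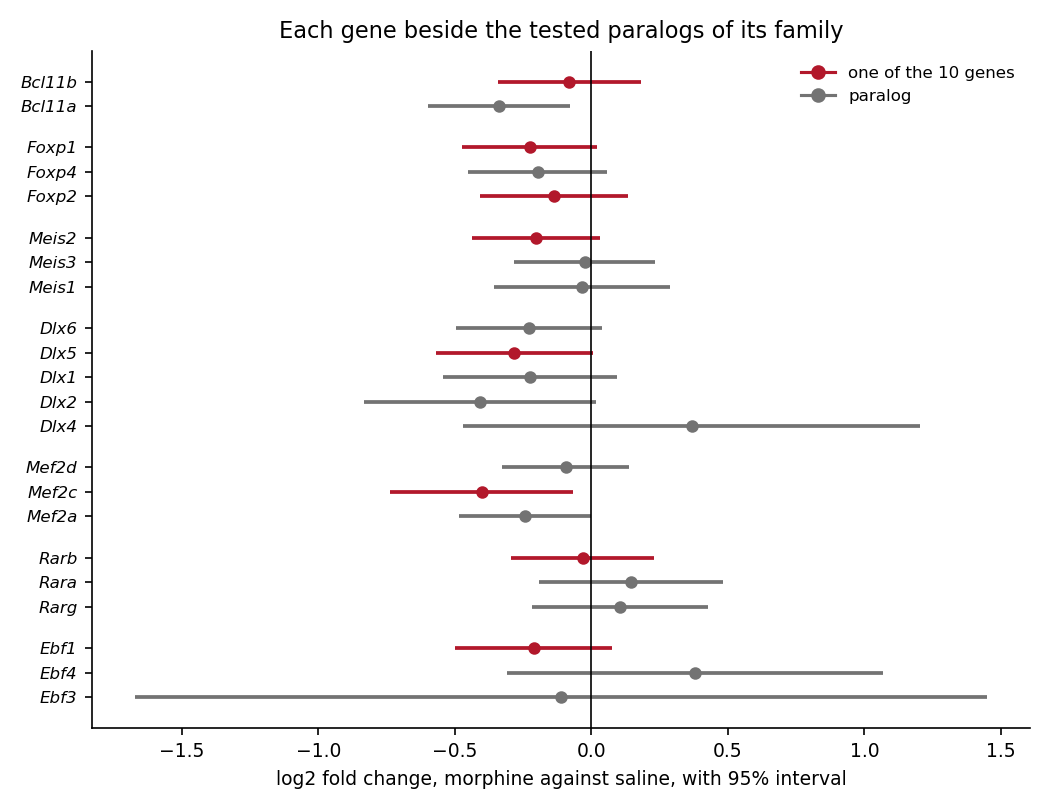
Log2 fold change with its 95% interval for 7 families, the 10 genes other than Isl1 and Sp9 in red and their tested paralogs in grey, each family ordered by level per kb. The intervals of Bcl11a, Mef2a and Mef2c lie below 0, and Dlx1, Dlx2, Dlx5 and Dlx6 sit together between -0.41 and -0.23.

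Partner proteins and further striatal factors gave 1 call. Of 19 other striatal transcription factor genes tested, 0 passed, none at an unadjusted p under 0.05, and their median log2 fold change was -0.03. The smallest p values of these belonged to Dlx2 and to Sp8, at -0.67 (SE 0.40 and adjusted p = 0.345) with a mean level of 67.8 in the authors' deposited table. PBX and PKNOX genes, whose proteins bind DNA with MEIS factors or in their place, gave 0 calls of 6 (0 at an unadjusted p under 0.05), with a median of -0.15. For Pknox2 the authors' deposited table held -0.15 (SE 0.12). Of 6 genes of the LDB and LMO kind, whose proteins join or compete with LIM homeobox factors such as ISL1, 1 fell: Ldb2, with -0.40 (SE 0.15 and adjusted p = 0.0474) at a mean level of 3634 in the authors' deposited table. That call ended with centring on all tested genes (adjusted p = 0.0580) and on coding genes without a predicted segment (adjusted p = 0.117). Lmo4 was at -0.33 (SE 0.14 and adjusted p = 0.123) in the authors' deposited table. No call was made among 13 genes of the MEF2 pathway (median -0.09, 1 at an unadjusted p under 0.05), 14 genes of the FOXP co-repressors and the NuRD complex (median -0.13, 1 at an unadjusted p under 0.05) or 23 genes of the BAF chromatin complex (median -0.09, 1 at an unadjusted p under 0.05). Hdac5, whose protein represses MEF2 factors, was at 0.32 (SE 0.16 and adjusted p = 0.230) and the deacetylase gene Hdac2 at -0.26 (SE 0.13 and adjusted p = 0.208) in the authors' deposited table. Mta1 of the NuRD complex was at -0.22 (SE 0.13) and Bcl7a of the BAF complex at -0.23 (SE 0.12) in the authors' deposited table.

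None of the 10 proteins has a predicted signal or membrane segment, by the hydropathy of each gene's longest coding sequence. The same held for the 19 other striatal transcription factor genes and the 21 paralogs tested. Choosing transcription factors thus largely fixed this feature. The kind of protein goes with the change across the table. Among 9865 tested coding genes without such a segment, 2.87% were higher and 1.41% lower, with a median log2 fold change of -0.06, while 47.1% of 3508 with one were higher and their median was 0.59. Calls in either direction made up 4.28% of the 10 genes' own class, so 0 of 10 is a share near the background there, and 6.34% of 347 transcription factor genes taken by symbol pattern were called. Of those 347, 21 rose and 1 fell, which was Nr4a2, an orphan nuclear receptor gene, with -0.54 (SE 0.16 and adjusted p = 0.00820) in the authors' deposited table. Within their class and at a mean level of at least 1000, the values of Mef2c, Dlx5 and Isl1 were above those of 1.47%, 6.91% and 7.63% of genes. Foxp1, Ebf1 and Meis2 were above 13.9%, 16.2% and 17.7%, Foxp2 above 33.9%, Bcl11b above 50.2%, Rarb above 62.6% and Sp9 above 82.4% of genes. Of all 347 transcription factor genes by symbol pattern, 47.0% were below 0, with a median of 0.03. At a mean level of at least 1000 it was 52.7% of 184, with a median of -0.01. The class without a segment had, at that level, a median of -0.08, and 70.2% of its 5659 genes were below 0.

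Marker genes of the same neurons split along this line. Of 26 tested projection neuron markers other than the 10 genes, 12 rose and 0 fell, and all 12 were among the 18 with a predicted segment. Among the 7 without one 0 passed, and their median was -0.08. Sfxn1, a mitochondrial carrier gene, was in neither class, though not through the rule on mitochondrial families. Sfxn1 was at -0.22 (SE 0.14 and adjusted p = 0.383) in the authors' deposited table. Named from the authors' deposited table, the dopamine D1 receptor gene Drd1 rose by 0.70 (SE 0.13), Tac1, the substance P precursor gene, by 1.14 (SE 0.17) and Adcy5, a striatal adenylyl cyclase, by 0.76 (SE 0.12). By contrast Ppp1r1b, the gene of the cytosolic signalling protein DARPP-32, was at -0.12 (SE 0.14 and adjusted p = 0.732) and Gnal, a G protein gene, at -0.01 (SE 0.12) in the authors' deposited table. The rule is rough: it gave a segment to Pde1b and Eya1, whose proteins are known as soluble, and these were at -0.19 (SE 0.14) and -0.29 (SE 0.19) in the authors' deposited table. Of the 18 markers with a segment 3 were below 0, Pde1b, Eya1 and Pde10a, the last at -0.13 (SE 0.12). Outside these markers, it gave a segment to the transcription factor gene Olig1 and none to Rbp4, the secreted carrier of retinol. Both rose, by 0.97 (SE 0.20) and 1.18 (SE 0.22) in the authors' deposited table. In RNA purified on tagged ribosomes from many cells, the number of tagged cells, the RNA per cell and its share on ribosomes cannot be told apart. How much RNA came from cells without the tag was not tested.

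**Figure D4:**
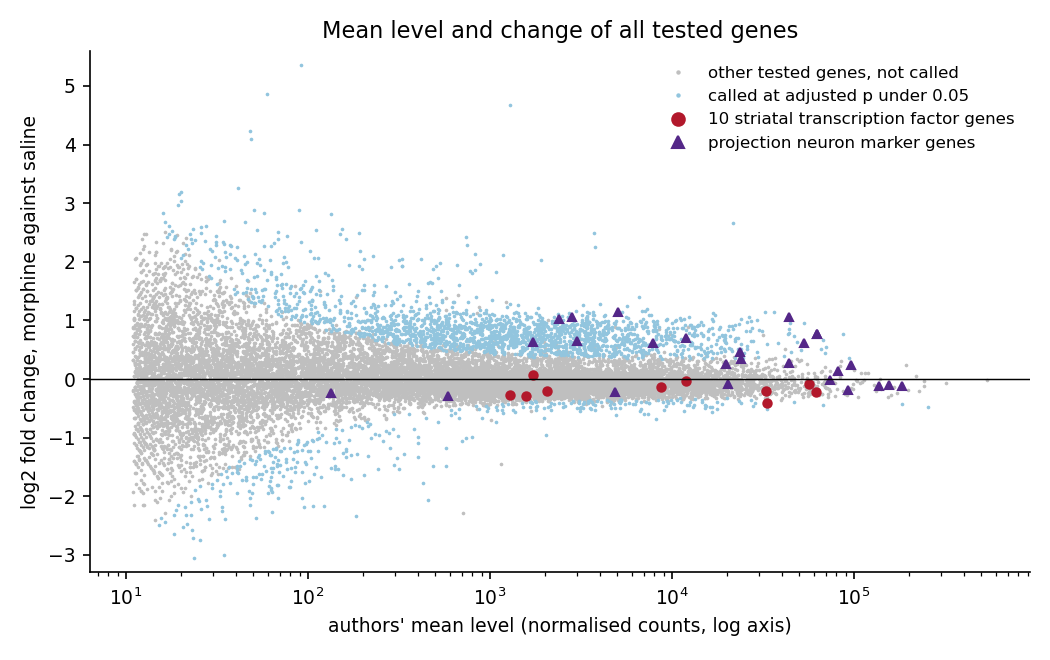
Mean level (log axis) and log2 fold change of all 17279 tested genes in grey or, where called, light blue, with the 10 transcription factor genes as red circles and 26 projection neuron markers as purple triangles. The red circles lie between -0.40 and 0.06, and the 12 called markers lie above them.

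Some transcription factor genes of other cell types were called. Over all tested genes 11.8% rose and 22.2% had an unadjusted p under 0.05 by the Wald test of DESeq2. Of 347 transcription factor genes taken by symbol pattern, 6.05% rose. Of 8 oligodendrocyte factor genes 4 rose, with a median of 0.86, and these were Myrf at 1.31 (SE 0.22), Olig2 at 0.97 (SE 0.32), Olig1 at 0.97 (SE 0.20) and Sox10 at 0.91 (SE 0.26) in the authors' deposited table. All 4 are known for fixing or maturing the myelinating lineage. Myrf and Olig1 were the 2 of the 8 with a predicted signal or membrane segment, a class in which 47.1% of 3508 tested genes rose. For Olig1 this class rests on the rough rule described above. Among 13 factor genes of cortical and thalamic excitatory neurons 3 rose, Tcf7l2 by 2.42 (SE 0.70), Shox2 by 2.19 (SE 0.27) and Lef1 by 1.68 (SE 0.41) in the authors' deposited table, and the median of the 13 was -0.12. Epas1, a hypoxia-related factor of endothelium, rose by 1.13 (SE 0.19) in the authors' deposited table as 1 of 6 vascular factor genes. Calls numbered 0 of 9 for astrocyte factors (median 0.19, 2 at an unadjusted p under 0.05), 0 of 4 for microglia (median 0.54, 1 at an unadjusted p under 0.05), 0 of 4 for ependyma and choroid plexus (median 1.10, 3 at an unadjusted p under 0.05) and 0 of 13 for interneurons (median -0.01, 1 at an unadjusted p under 0.05). By the smallest p, the astrocyte list was led by Sox9 at 0.57 (SE 0.23) and Hes5 at 0.70 (SE 0.34), and the microglia list by Sall1 at 0.65 (SE 0.26) and Cebpa at 0.44 (SE 0.24), in the authors' deposited table. In the same way the authors' deposited table gave Foxj1, the master gene of motile cilia, 0.71 (SE 0.30), Msx1 1.49 (SE 0.70), and, among interneuron factors, Prox1 0.40 (SE 0.17). Summed over each list, the level per kb was 9079 for factors of cortical and thalamic excitatory neurons, 2527 for interneuron factors, 2351 for astrocyte factors, 1491 for oligodendrocyte factors, 578 for ependyma and choroid plexus, 211 for microglia and 172 for vascular factors, against 20731 for the 10 genes. The excitatory sum was led by Neurod2 at 2065 and Tbr1 at 1988 normalised counts per kb in the authors' deposited table, close to Mef2c at 2126, and their log2 fold changes were -0.12 (SE 0.16) and -0.23 (SE 0.17). Sox8, which was not called, made up 961 of the oligodendrocyte sum. The part of such cells in the values of Mef2c, Ebf1 and Isl1, which other cell types also express, was not tested.

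**Figure D5:**
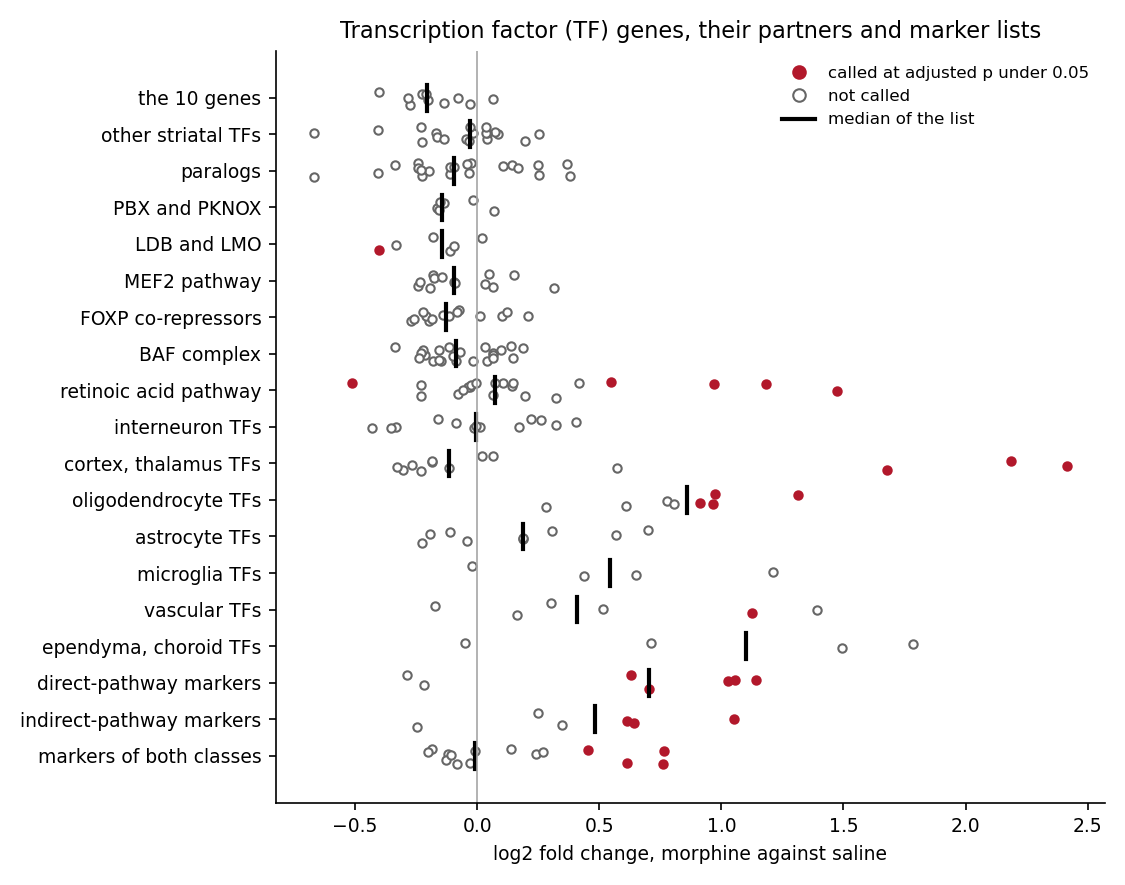
Log2 fold change of each tested gene (circles, red where called) in the 10 genes and in 18 lists of related factors, partners and markers, of which the retinoic acid list also holds Rarb and the markers of both classes Rarb and Meis2, with the median of each list as a black bar. The 10 genes have a median of -0.21 and no red circle, while oligodendrocyte factors have a median of 0.86 and direct-pathway markers 0.70.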

How the data were processed

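The submitters' processing notes name STAR 2.6.1d and DESeq2 1.20.0, and as builds GRCm38 and mm10, without saying which step used which. How reads were counted, on which annotation, with which model and from which libraries is not given in the sources used here, and neither is the count of libraries that an SE rests on. The table's title holds an unexplained term, RM-out. The authors' deposited mean level is a signal, counts divided by size factors. Log2 fold changes and their SEs are the authors' estimates, their ratio is deposited as a score, the Wald statistic, and the deposited p-values are two-sided and adjusted over 17279 genes. The other 1453 genes had a mean of at most 10.9. Nothing in the labels says whether libraries came from separate litters or batches.

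Symbols, positions and lengths came from GENCODE M21 (GRCm38), which matched 18726 identifiers. Intervals at 95% assume a normal estimate. The size needed for a call was the SE times 2.70, the statistic of the largest called p (0.00689). A segment was called where mean Kyte-Doolittle hydropathy reached 1.9 over 19 residues, or 2.2 over 12 of the first 40 residues. Mitochondrial families, and proteins with a segment in their last 50 residues alone, were left out of both classes. Read sharing was checked with blastn 2.17.0 at 95% identity over at least 75 bases, which beside the exon overlaps found Gm2810 for Sp9. The genes and lists were chosen with earlier results of these data known. Named genes are the 10 and, from every list, up to 4 called genes with the most extreme changes (2 at each end), or without calls the 2 of smallest p; not every gene so taken is reported here. Paralogs, partners and the genes that show a split within a list were named beside them after their values were seen. Steps were tested on simulated data. Computation used Python 3.11.15 with pandas 2.3.3, numpy 2.4.6, Biopython 1.88, scipy 1.17.1 and, for figures, matplotlib 3.10.9.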

Additional observations from a re-analysis of the deposited data

How the results depend on the processing

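No member was called under any of 8 alternatives to the authors' adjustment. These were an adjusted p of 0.1, Bonferroni adjustment, adjustment again over all genes with a p, over genes with a mean of at least 100 or of at least 1000, and centring on the median of all tested genes, of coding genes without a predicted segment, or of transcription factor genes. The mean of at least 1000 and the last centring were added after the data were seen. Of 70 single values, 69 kept their direction and side of the threshold. The exception was Rarb, at 0.030 when centred on coding genes without a segment, where the interval spans 0 either way. Adjusting again, by Bonferroni or over other genes, leaves each log2 fold change as it is, so only the centrings could change a direction. Bonferroni adjustment could add no call. Of 168 values for 26 called genes outside the 10, 19 lost the call and 0 changed direction. These were Ldb2 and Crabp1 under both planned centrings, Ldb2 when adjusted over all genes with a p (adjusted p = 0.0513), and the rest under Bonferroni adjustment. The adjusted p of Mef2c ranged from 0.0751 to 1. The median level per kb of the 10 genes was 1410 by all exons and 2555 by the longest transcript. No paired analysis was possible because the table holds no values per library, and leaving out single libraries could not be run for the same reason.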
